A study of Mus musculus with 6 samples.

Results

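Myelin in the brain is the spiral membrane that oligodendrocytes wrap around axons. The genes described here encode 10 of its structural and adhesion proteins: Mbp, Mobp, Cldn11, Mal, Mog, Mag, Cnp, Opalin, Ermn and Hapln2. They were chosen by name, out of 22180 genes with a probe set that carried a single gene symbol, and each had exactly 1 such probe set. No filter on low values was applied, so all 10 entered the comparison. They were sorted by where the protein lies. Compact myelin, where the membrane layers are pressed together, held 4 of them (Mbp, Mobp, Cldn11, Mal), non-compact myelin, the regions that keep cytoplasm or face the axon or the outside, held 5 (Mog, Mag, Cnp, Opalin, Ermn), and Hapln2 belongs to the matrix around the node of Ranvier, the gap between neighbouring sheaths.

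The study made demyelinating lesions in mice with LPC, a lipid that strips myelin, in the brain at an age of 5 to 6 weeks. CID, the agent that starts the removal of astrocytes, was injected 48 hours later, and lesions were taken 7 days after they were made; the labels give this treatment for both genotypes. Each macrodissected lesion gave the total RNA for 1 Affymetrix array, with 3 wild type lesions and 3 lesions of transgenic mice in which GFAP-positive astrocytes that do not proliferate can be eliminated. The labels name neither the promoter of the transgene nor the strain nor the brain region, and do not tie lesions to animals, so every p-value reflects the spread among these 6 samples, which may be technical. A level below is the log2 intensity of a probe set, and a difference is the transgenic minus the wild type mean on that scale, where -1 is 2-fold lower. Levels of different genes are not compared, because each probe set has its own brightness.

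Oligodendrocytes make the members late in their maturation. Transcription factors such as SOX10 and MYRF switch on the genes together, and the proteins then assemble into the sheath. Mbp and Mobp are small basic proteins that hold the inner faces of the membrane together, and their mRNAs are carried out into the cell processes. After demyelination the same genes are turned on again in the cells that repair the sheath.

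Because the members were lower together in the transgenic group, the stretches just before their starts are shown. RefSeq (GRCm38.p6) gave promoter windows for 9 of the 10 genes, all but Mbp. The 250 bases before each listed start were searched on both strands for a SOX core (ACAAAG or ACAATG), a MYRF core (CTGGCAC or CTGGTAC) and an E-box (CAGCTG or CATATG), and on the given strand for TATAAA. The 5 windows below are shown 5′ to 3′ toward the start. They comprise those with a MYRF core, with the farthest upstream window for Mag, and that of Mobp, which had the most SOX cores. Capitals mark the matches.
Mobp (chr9:120149492-120149741, plus strand): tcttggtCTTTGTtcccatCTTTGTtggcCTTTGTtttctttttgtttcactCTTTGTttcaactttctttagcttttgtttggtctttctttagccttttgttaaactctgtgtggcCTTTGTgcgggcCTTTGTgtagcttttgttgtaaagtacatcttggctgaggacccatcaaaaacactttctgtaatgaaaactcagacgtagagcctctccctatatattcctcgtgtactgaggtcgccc
Cnp (chr11:100574689-100574938, plus strand): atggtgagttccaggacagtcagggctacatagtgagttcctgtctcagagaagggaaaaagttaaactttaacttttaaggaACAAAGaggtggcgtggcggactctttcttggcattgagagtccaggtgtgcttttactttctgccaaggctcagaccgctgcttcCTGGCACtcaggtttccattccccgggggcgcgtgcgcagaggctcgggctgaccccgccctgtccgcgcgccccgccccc
Mag (chr7:30914923-30915172, minus strand): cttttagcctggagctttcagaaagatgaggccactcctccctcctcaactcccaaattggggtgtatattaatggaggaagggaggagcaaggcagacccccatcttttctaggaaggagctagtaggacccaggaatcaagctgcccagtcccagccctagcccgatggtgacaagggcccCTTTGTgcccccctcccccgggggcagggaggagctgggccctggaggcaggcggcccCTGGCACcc
Mog (chr17:37023399-37023648, minus strand): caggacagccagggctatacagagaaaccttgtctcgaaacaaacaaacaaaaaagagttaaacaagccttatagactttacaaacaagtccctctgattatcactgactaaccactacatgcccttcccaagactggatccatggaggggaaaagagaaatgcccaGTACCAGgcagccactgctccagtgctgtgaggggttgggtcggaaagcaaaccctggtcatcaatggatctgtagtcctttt
Hapln2 (chr3:88027512-88027761, minus strand): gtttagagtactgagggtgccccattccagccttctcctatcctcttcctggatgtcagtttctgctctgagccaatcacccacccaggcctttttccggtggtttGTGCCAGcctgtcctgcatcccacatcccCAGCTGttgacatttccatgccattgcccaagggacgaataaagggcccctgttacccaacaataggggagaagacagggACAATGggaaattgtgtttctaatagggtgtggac

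The 9 genes had 11 windows, since Mag had several, and the Mag windows with a match overlap. The SOX core was found in 6 of the 9 genes (Cnp, Ermn, Hapln2, Mag, Mobp and Opalin). It lay in 7 of their 11 windows and in 25.2% of 32851 windows of the same length. The window of Mobp held 6 of them, none overlapping. The MYRF core was found in 4 of the 9 genes (Cnp, Hapln2, Mag and Mog), in 5 of their 11 windows and in 5.93% of all windows. In Mag it began 9 bases before the start shown, in Cnp 81 and in Mog 83. Hapln2 also held an E-box, which 16.1% of all windows had, and none of the 9 genes held TATAAA, which 7.59% had. The windows are given without a test. A match describes letters and does not show that a factor binds there.

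In the transgenic lesions all 10 members had lower means than in wild type lesions. The median of their differences was -0.82, where the median over all 41345 probe sets was -0.01. A lower mean was found in 51.1% of all probe sets. Without overlap, 9 of the 10 were lower on all transgenic arrays than on any wild type array; 7.6% of all probe sets showed that order. Hapln2 was the exception. With the arrays centred on their medians, 8 of the 10 kept that order, since Mbp then overlapped as well. The same 9 members had an unadjusted p under 0.05 in limma with lower transgenic levels, as did 4.05% of all probe sets, and were at least 1.5-fold lower, as were 4.32%. None of the 10 passed the adjusted threshold of 0.05 over all probe sets, and 0% of probe sets did, in either direction: 3668 had an unadjusted p under 0.05. Adjusted p-values of the members lay between 0.328 (Ermn) and 0.658 (Hapln2). In bulk tissue, fewer oligodendrocytes and less of these RNAs per cell cannot be told apart.

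**Figure D1:**
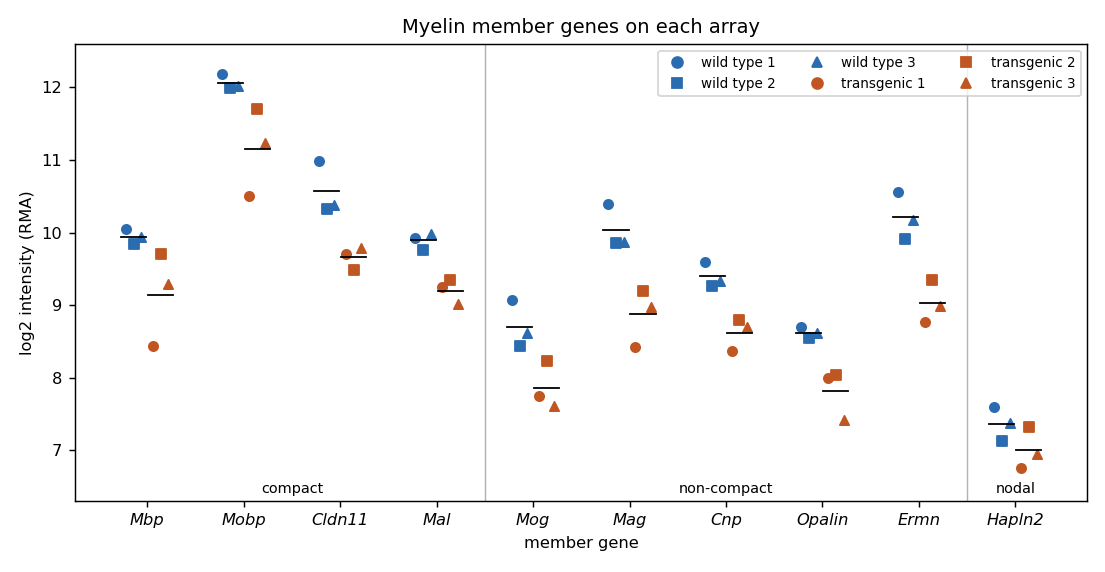
Log2 RMA intensity (vertical axis) of the 10 member genes (horizontal axis) on each of the 3 wild type and 3 transgenic arrays; short black lines are group means. For 9 genes all transgenic points lie below all wild type points, and for Hapln2 transgenic array 2 (7.32) lies above wild type array 2 (7.13).

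Of the compact myelin genes, Mbp encodes myelin basic protein, which binds the cytoplasmic faces of the membrane to each other. Its level was 10.05, 9.84 and 9.94 on wild type arrays 1, 2 and 3 and 8.43, 9.70 and 9.29 on transgenic arrays 1, 2 and 3. The wild type arrays lay close together, transgenic array 1 stood far below them and transgenic array 2 just below. The gap between the lowest wild type and the highest transgenic array was 0.14. The difference was -0.80 (SE 0.31, unadjusted p 0.0341, adjusted p 0.532 in limma), a 1.74-fold lower level with a 95% confidence interval of 1.06 to 2.88. Without transgenic array 1 it was -0.45. Its unadjusted p in limma was above 0.05 without wild type array 1 (0.0899), 2 (0.0611) or 3 (0.0737) or without transgenic array 3 (0.0531), after centring the arrays on their medians (0.0651) and with sex as a covariate (0.485).

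Mobp encodes another small basic protein of the cytoplasmic side of compact myelin. Mobp stood at 12.19, 11.99 and 12.02 in wild type and at 10.51, 11.71 and 11.23 in transgenic lesions. Its transgenic arrays had the same order as those of Mbp, with array 1 lowest and array 2 highest. The difference of -0.91 (SE 0.29, unadjusted p 0.0156, adjusted p 0.488 in limma) is 1.88-fold, with an interval of 1.17 to 3.02. Leaving out transgenic array 1 gave -0.59.

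Cldn11, the claudin that forms tight junctions between the layers of the sheath, was measured at 10.99, 10.33 and 10.38 in wild type and at 9.70, 9.48 and 9.78 in transgenic lesions. Here the transgenic arrays were close together (SD 0.16), wild type array 1 stood above the other two, and transgenic array 2 was the lowest. The difference was again -0.91, with an SE of 0.21 and an interval of 1.33- to 2.66-fold lower (unadjusted p 0.00318, adjusted p 0.4 in limma).

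Mal encodes a proteolipid of lipid-rich membrane domains. Its levels were 9.92, 9.76 and 9.98 in wild type and 9.25, 9.34 and 9.02 on the transgenic arrays, tight within each group (SD 0.11 and 0.16, n = 3). It had the smallest difference of the compact genes, -0.68, and the smallest SE of all members, 0.15 (1.61-fold lower, interval 1.26 to 2.06, adjusted p 0.395 in limma).

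Among the non-compact genes, Mag encodes the adhesion molecule of the innermost layer, which faces the axon. Mag was at 10.39, 9.86 and 9.87 in wild type and at 8.42, 9.20 and 8.97 in transgenic lesions. The groups were 0.66 apart at their nearest arrays, the widest gap of the 10 members. The difference of -1.17 (SE 0.25) is 2.26-fold, with an interval of 1.5 to 3.38 and an adjusted p of 0.365 in limma.

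Ermn, an actin-binding protein of the cytoplasm-filled parts of the sheath, had the largest difference of the members, -1.18 (SE 0.23). It stood at 10.56, 9.91 and 10.17 on wild type arrays and at 8.76, 9.35 and 8.99 on transgenic arrays, 2.27-fold lower with an interval of 1.57 to 3.28. Of all probe sets, 0.476% had a lower difference than Ermn and 0.486% a lower one than Mag.

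Mog encodes an immunoglobulin-like protein on the outer surface of the sheath. It was at 9.07, 8.43 and 8.61 in wild type and at 7.74, 8.23 and 7.61 in transgenic lesions, with a gap of 0.20 between the nearest arrays. The difference was -0.84 (SE 0.23, 1.79-fold, interval 1.22 to 2.63, adjusted p 0.447 in limma).

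Cnp encodes an enzyme that keeps cytoplasmic channels in the sheath open. Its levels were 9.60, 9.26 and 9.33 in wild type and 8.37, 8.80 and 8.69 in transgenic lesions, and its difference was -0.78 (SE 0.18, 1.71-fold, interval 1.29 to 2.28).

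Opalin, a transmembrane glycoprotein of oligodendrocytes, differed by -0.81 (SE 0.20, 1.75-fold, interval 1.27 to 2.41). It was even in wild type (8.69, 8.55 and 8.62) and less so in transgenic lesions (7.99, 8.04 and 7.41), where array 3 was the lowest.

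Hapln2 encodes the link protein that ties hyaluronan to other matrix at the node of Ranvier. It was at 7.59, 7.13 and 7.37 in wild type and at 6.75, 7.32 and 6.94 in transgenic lesions. The groups overlapped, since transgenic array 2 lay between wild type arrays 2 and 3. The difference of -0.36 (SE 0.20, unadjusted p 0.119, adjusted p 0.658 in limma) had an interval from -0.83 to 0.12, which includes 0 and also the differences of Mbp, Mal, Cnp and Opalin. Whether Hapln2 differed less than these genes was not tested. Without transgenic array 1 the value was -0.23, without wild type array 1 -0.24, and without transgenic array 2 -0.52.

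**Figure D2:**
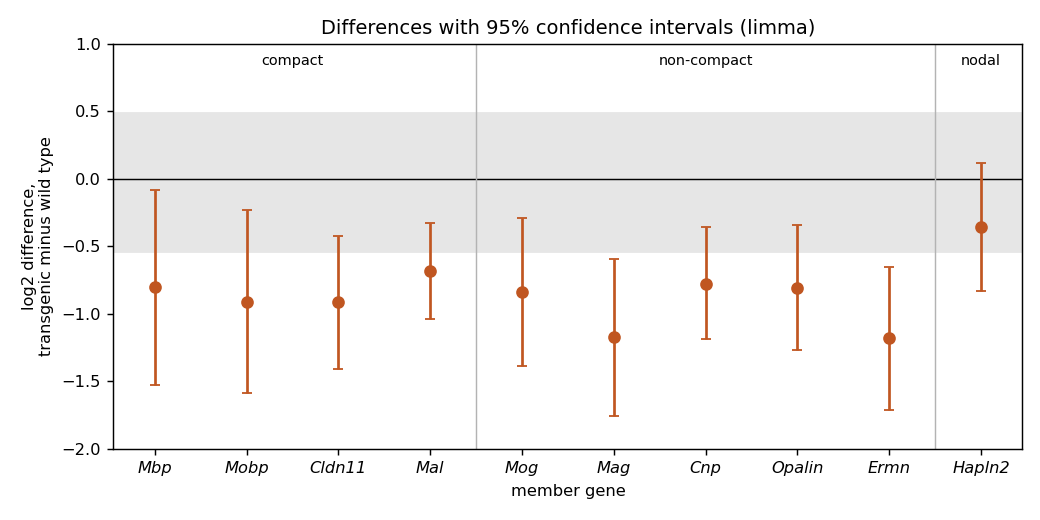
Log2 difference, transgenic minus wild type (vertical axis), of each member gene (horizontal axis) with its 95% confidence interval from limma on 3 against 3 arrays; the grey band spans the 5th to the 95th percentile of the differences of all probe sets, -0.54 to 0.49. The 9 sheath genes lie between -1.18 and -0.68, below the band, and Hapln2 lies within it at -0.36.

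Taking the classes apart, the mean level of the 4 compact genes was 10.62 ± 0.16 on the wild type and 9.79 ± 0.30 on the transgenic arrays (SD, n = 3 each), which differ by -0.83. That of the 5 non-compact genes was 9.39 ± 0.24 and 8.44 ± 0.25, which differ by -0.96. Relative to their wild type means, the compact genes stood at -1.14, -0.56 and -0.78 on transgenic arrays 1, 2 and 3, and the non-compact genes at -1.14, -0.67 and -1.06. The classes were therefore equally low on transgenic array 1 and differed most on array 3. The class difference shifted by 0.13 between the groups, with an SD of 0.08 over the wild type and 0.14 over the transgenic arrays, and by 0.05 without transgenic array 3. This shift was within the spread of the transgenic arrays. No p is given for scores over members, which were chosen with earlier results of these data known.

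The compact genes differed among themselves more than the class means did, in a pattern seen only after the values were known. Mbp and Mobp followed each other closely, at -1.52 and -1.55 relative to their wild type means on transgenic array 1, -0.24 and -0.35 on array 2, and -0.65 and -0.83 on array 3. Cldn11 stood at -0.87, -1.09 and -0.79 on the same arrays and Mal at -0.64, -0.55 and -0.86. On transgenic array 2, Mbp and Mobp were thus 1.18-fold and 1.28-fold below their wild type means, and Cldn11 was 2.12-fold below. The SD over the transgenic arrays was 0.65 for Mbp and 0.60 for Mobp, against 0.10 and 0.11 in wild type; over all probe sets the median SD was 0.26 and 0.15. A larger transgenic SD than that of Mbp was found in 8.63% of probe sets, and a larger one than that of Cldn11 in 75.6%.

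The arrays ranked the members alike in some respects. Wild type array 1 was the highest wild type array for 9 members, all but Mal, and wild type array 2 was the lowest for all 10. Transgenic array 2 was the highest transgenic array for 9 members, all but Cldn11. The lowest transgenic array was array 1 for 6 members (Mbp, Mobp, Mag, Cnp, Ermn and Hapln2), array 3 for 3 (Mal, Mog and Opalin) and array 2 for Cldn11. The mean over the 10 members was 9.90, 9.51 and 9.63 in wild type and 8.59, 9.12 and 8.79 in transgenic lesions.

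**Figure D3:**
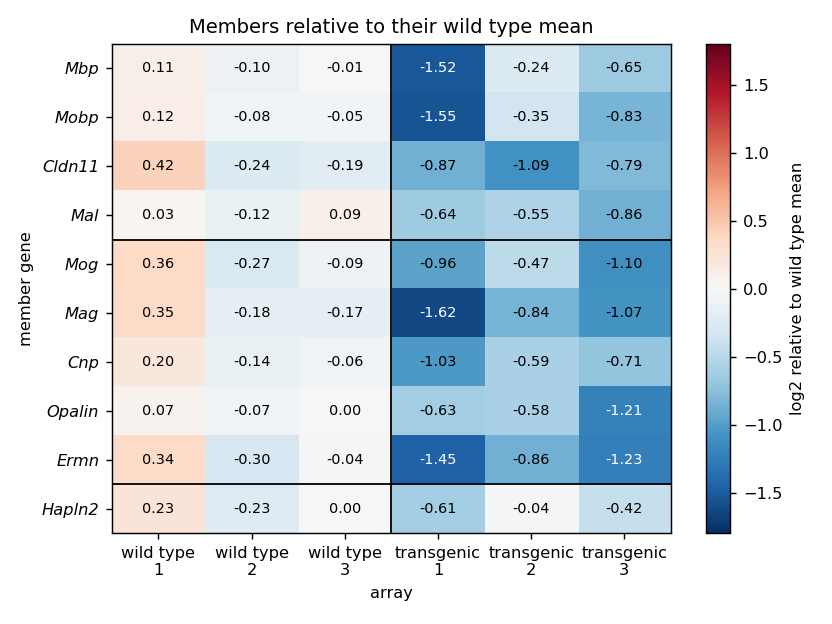
Log2 level of each member gene (rows) on each array (columns) relative to its wild type mean; blue is lower and red higher, and the printed numbers are the values. Mbp and Mobp are lowest on transgenic array 1 (-1.52 and -1.55) and nearest to wild type on array 2 (-0.24 and -0.35), and Cldn11 is lowest on array 2 (-1.09).

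The median log2 intensity was 5.34 on transgenic array 2 and 5.52 to 5.59 on the others. Correlations over all probe sets were 0.980 to 0.984 within wild type and 0.928 to 0.968 within the transgenic group. The mean of 8 neuron genes was 9.22 to 9.96 over the lesions. Gfap, the gene that defines the targeted astrocytes, was at 9.83, 9.18 and 9.09 in wild type and at 8.91, 8.82 and 9.24 in transgenic lesions, with overlapping groups (adjusted p 0.695 in limma); the labels do not give the sequence of the transgene, so Gfap is no direct check of it.

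Sex-linked genes differed between the groups, and striatal genes differed both between the groups and within wild type. Xist, the RNA of the inactive X chromosome, was at 9.30 to 9.49 on the wild type arrays and at 9.14 on transgenic array 2, and at 4.67 and 4.42 on transgenic arrays 1 and 3, where the mean of 3 Y-linked genes was 5.99 and 6.32, against 2.78 to 3.39 on the other arrays. The one transgenic array with female expression is also the one on which 9 of the members, Mbp, Mobp and Hapln2 among them, were nearest to wild type. With sex as a covariate, a fit in which transgenic array 2 alone stands for the genotype, the difference was -0.24 for Mbp (adjusted p 0.718 in limma), -0.35 for Mobp, -0.04 for Hapln2 and -1.09 for Cldn11. In that fit no member passed the adjusted threshold, while 1481 probe sets did. The part of sex in the results cannot be told apart from that of the single array. Genes of striatal neurons were high on wild type arrays 2 and 3 (list means 7.87 and 8.48 over 4 genes) and low on wild type array 1 (6.03) and the transgenic arrays (5.95 to 6.31). All 4 had lower transgenic means, with a median difference of -1.44, larger than that of the members. An unadjusted p under 0.05 in limma was found for 2 of them, as for 4.05% of all probe sets with lower transgenic levels. The part of tissue region in the differences of the members was not tested. Drd2, a dopamine receptor, was at 5.67 on wild type array 1 and at 5.83, 6.37 and 5.78 on the transgenic arrays. Wild type array 1, which resembled the transgenic arrays in these genes, had the highest mean of the members, and without it the median of their differences was -0.73.

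Other genes of myelin were read from lists of related proteins, lipid enzymes and regulators. Of 39 measured, 38 had lower transgenic means, with a median difference of -0.57. Of these genes, 24 were lower at an unadjusted p under 0.05 in limma and 23 did not overlap. None passed the adjusted threshold. Over all probe sets, 51.1% had a lower mean, 4.05% were lower at that p and 7.6% were lower without overlap. The same shares stand beside the counts of lower genes in the lists below. Among 21 other myelin proteins the median was -0.53, with 12 lower at an unadjusted p under 0.05. Jam3, an adhesion molecule of junctions, differed by -0.75 (SE 0.18), and Omg, a myelin glycoprotein that neurons also make, was the one gene with a higher mean (0.32, SE 0.18, overlapping groups). Of the 7 lipid enzymes, which make the long-chain and galactosylated lipids of the sheath or move them, all had lower means and 6 an unadjusted p under 0.05. Ugt8a, which adds galactose to ceramide, differed by -0.80 (SE 0.18) and Fa2h, which hydroxylates fatty acids, by -0.94 (SE 0.25).

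The 11 regulators all had lower means, 6 at an unadjusted p under 0.05, with a median of -0.57. Myrf, the factor that drives the myelin genes in mature cells, stood at 8.42, 7.93 and 7.93 in wild type and at 7.09, 7.27 and 7.31 in transgenic lesions. Sox10, which acts throughout the lineage, was at 7.54, 7.18 and 7.39 and at 6.55, 6.48 and 6.82. In both factors the transgenic arrays lay close together (SD 0.11 and 0.18) and array 2 was not the highest. Some other regulators had the order of Mbp and Mobp, and others did not. Olig2, a factor of the whole lineage picked after its values were seen, had it, at 6.43, 7.46 and 7.12 on transgenic arrays 1, 2 and 3. St18 did not, at 5.36, 5.79 and 5.21. The mean of all 11 regulators was 6.67, 6.93 and 6.83. Sox8, a relative of Sox10, differed by -0.80 (SE 0.17) and St18 by -0.80 (SE 0.23). Relative to wild type, the mean of the members minus that of the regulators was -0.38, -0.11 and -0.34 on transgenic arrays 1, 2 and 3, with an SD of 0.04 over the wild type arrays. On each transgenic array the members thus lay further below wild type than the regulators, by the least on array 2. The list mean in wild type was 7.38 for the regulators and 9.68 for the members. Whether low signal made the differences of the regulators smaller was not tested.

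Precursor genes differed less. Their list mean was 7.00 in wild type, and whether low signal made their differences smaller was not tested. Of 9 measured, 8 had lower means, with a median of -0.20; 2 were lower at an unadjusted p under 0.05, namely Gpr17 (-0.66, SE 0.26) and Cacng4 (-0.48, SE 0.20), and the groups overlapped in each of the 9 genes. The mean of the 9 did not overlap, at 7.09, 6.92 and 6.97 in wild type and 6.65, 6.86 and 6.73 in transgenic lesions. The difference was -0.40 (SE 0.24) for Pdgfra, through which a platelet growth factor acts on precursors, and -0.36 (SE 0.26) for Ptprz1. The mean of the members minus that of the precursor genes shifted by -0.74, -0.42 and -0.62 on the transgenic arrays, against an SD of 0.11 over the wild type arrays.

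Schwann cells, the myelinating cells of peripheral nerves, also make Mbp, Mag and Mal and can enter demyelinated lesions. Of their markers, 5 were analysed here. The mean of the 5 was 5.61 to 5.73 on the wild type arrays and 5.53 to 5.76 on the transgenic arrays, and 0 had an unadjusted p under 0.05 in either direction. Egr2, a factor of Schwann cell myelination that is also an activity gene of neurons, differed by -0.13 (SE 0.15) and Drp2 by -0.15 (SE 0.18).

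**Figure D4:**
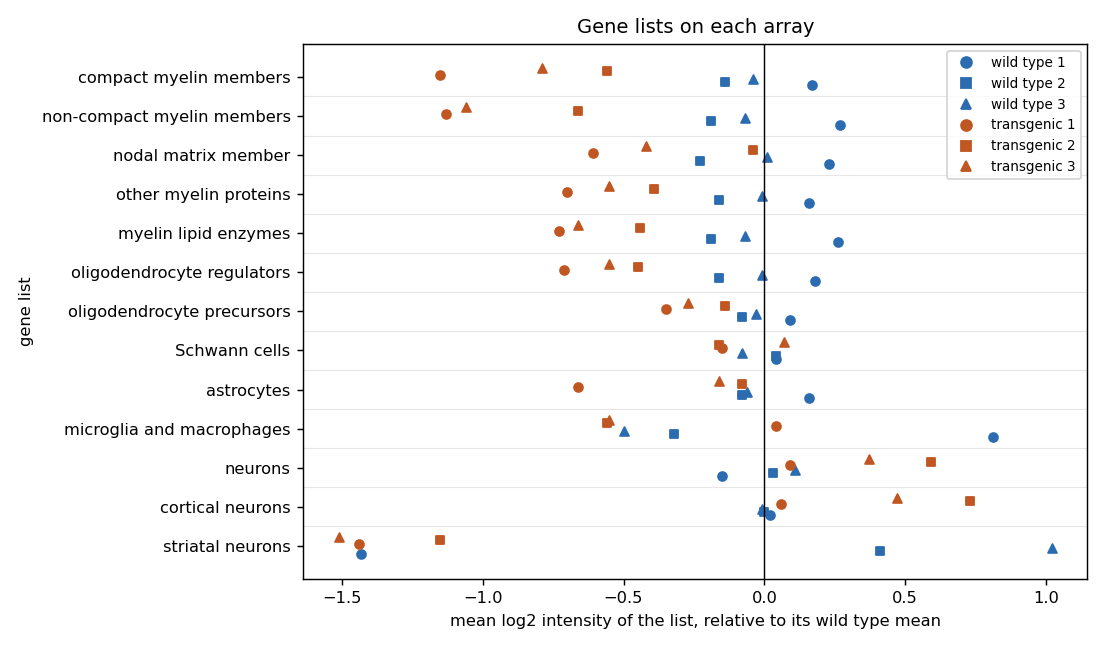
Mean log2 intensity of each gene list (rows) on each array, relative to the wild type mean of the list (horizontal axis). The transgenic points of the compact (-1.14 to -0.56) and non-compact (-1.14 to -0.67) genes lie to the left of all wild type points, as do those of the other myelin, lipid enzyme, regulator and precursor lists, whereas striatal genes on wild type array 1 lie with the transgenic arrays.

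None of the genes of other cell types passed the adjusted threshold in limma. Astrocyte genes had lower means in 7 of 8, with a median difference of -0.33. Of the 8, 1 was lower at an unadjusted p under 0.05 in limma and 3 were lower without overlap. These compare with 4.05% and 7.6% of all probe sets. The list mean of the astrocyte genes was 8.67 to 8.91 on the wild type and 8.09 to 8.67 on the transgenic arrays. It was lowest on transgenic array 1, where most members were also lowest. Microglia and macrophage genes were highest on wild type array 1 (8.93, against 7.62 and 7.80 on the other wild type arrays and 7.56 to 8.16 in transgenic lesions), the array with the highest member levels. Of the 8 microglia and macrophage genes, 0 had an unadjusted p under 0.05. All 8 neuron genes had higher transgenic means, with a median of 0.38 and 1 at an unadjusted p under 0.05. The 5 cortical neuron genes were higher too (median 0.34), led by Lamp5 at 1.05 (SE 0.25). Of 5 fibroblast genes 3 had higher means, and in Dcn (1.41, SE 0.19, adjusted p 0.213 in limma) and Lum (0.73, SE 0.18), both matrix proteoglycans, the transgenic arrays lay above all wild type arrays. The part of these cell types in the differences of the members was not tested.

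The genes most like the members were ranked by the Pearson correlation of their levels over the 6 arrays with the mean profile of the members, among 5750 other genes with a mean level of at least 7. The 10 highest were Pllp, Serinc5, Dock10, Pacs2, Arrdc3, Enpp4, Sema6a, Gpr37, Gjc3 and Gatm, with r between 0.987 and 0.997. Pllp, a proteolipid of myelin, and Gpr37, a receptor of oligodendrocytes, were in the fixed lists. After the group means were taken out, r was between 0.932 and 0.998 over the same arrays, on which the genes had been chosen. Gatm, which makes a precursor of creatine, differed by -1.20 (SE 0.30), Arrdc3 by -1.03 (SE 0.20) and Sema6a, a semaphorin, by -0.46 (SE 0.14). The arrays share the group shift, sex and tissue makeup described above, and the correlations are given as a description.

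Among the members, Ermn was closest to the mean of the other 9 after group means were taken out, apart from Hapln2 (r = 0.98 and 0.99 over 6 arrays), followed by Cnp (0.94), Mag (0.92), Mog (0.86), Mobp (0.80) and Mbp (0.76). Mal (0.39), Cldn11 (0.19) and Opalin (0.18) followed it least. Hapln2 thus had the smallest difference between the groups but the same order of arrays within them as most members.

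**Figure D5:**
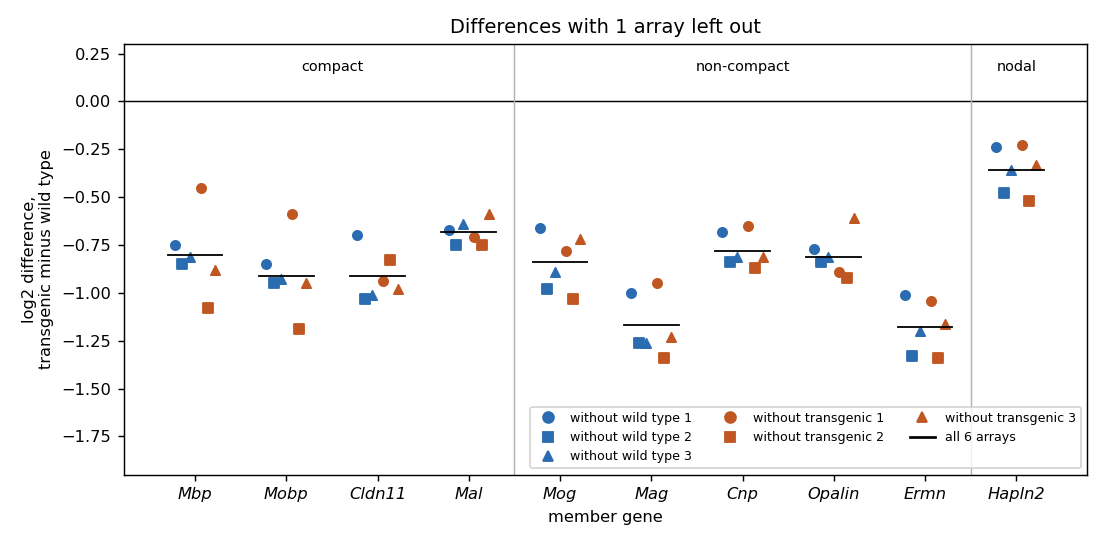
Log2 difference of each member gene (horizontal axis) with 1 array left out (points, by the array omitted) and with all 6 arrays (black lines). All values stay below 0, which leaving out an array could not change for the 9 genes without overlap. Mbp and Mobp move most, to -0.45 and -0.59 without transgenic array 1 and to -1.08 and -1.19 without transgenic array 2.

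Leaving out any single array kept all 10 differences below 0, with a range of -1.34 (Ermn and Mag, without transgenic array 2) to -0.23 (Hapln2, without transgenic array 1). For the 9 members without overlap the sign could not change in this way, so only that of Hapln2 was open. The median of the members ranged from -0.97 without transgenic array 2 to -0.73 without wild type array 1. With array weights, which gave transgenic array 3 a weight of 7.67 and the other 2 transgenic arrays 0.28 and 0.26, 9 members passed the adjusted threshold, all but Hapln2, together with 2611 probe sets of the whole table.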

How the data were processed

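Total RNA of 6 lesions was measured on 6 arrays. Per the submitters' processing notes, the authors obtained the deposited intensities with RMA in Affymetrix Expression Console; their versions and a genome build were not given in the sources used here. Values ran from 3.73 to 15793 on a linear scale and were turned to log2 with no pseudocount. Of 41345 probe sets, 23521 had 1 gene symbol, 1814 several and 16010 none. Each gene was read from its single-symbol probe set with the highest mean. Groups come from the sample titles.

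limma 3.58.1 in R 4.3.3 (lmFit, eBayes) compared 3 transgenic with 3 wild type arrays over all probe sets, two-sided, with Benjamini-Hochberg adjustment at 0.05; p-values in the text are from it. The median SE was 0.19, so the number of arrays limits precision. The step was tested on simulated data. Named were all 10 members, the 10 genes most like them, and up to 4 genes per list by unadjusted p; Omg, Olig2 and Plekhb1 were named after their values were seen. Members and lists were chosen with earlier results of these data known.

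Alternatives changed normalization, filter, pseudocount, weights, block, sex and arrays.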

Additional observations from a re-analysis of the deposited data

How the results depend on the processing

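Under 14 alternatives the 140 member differences all stayed below 0, from -1.34 to -0.04. For the 9 members without overlap, only quantile normalization and median centring could have changed the sign. Of the 140 values, 131 did not pass the adjusted threshold, which no member passed in the main fit. The other 9 were the members that passed with array weights. The replicate block, leaving out dim probe sets and averaging probe sets could not change a member difference. With array weights 9 members and 2611 probe sets passed, and the compact minus non-compact shift was 0.26; these weights rest on transgenic array 3. With sex as a covariate 1481 probe sets and no member passed, and the median member, compact and non-compact differences were -0.56, -0.56 and -0.67; that fit compares transgenic array 2 with wild type. Leaving out 1 array gave 0 to 335 probe sets past the threshold, the most without transgenic array 2, with 0 members past it. The compact difference then ranged from -0.96 to -0.67, the non-compact one from -1.10 to -0.82, and their shift from 0.05 to 0.19. The count of non-overlapping members was 9 to 10, and leaving out an array could not lower it. That count was 8 after median centring, where 8 members also had an unadjusted p under 0.05 in limma. Same-numbered samples did not deviate together (correlations 0.01, -0.10 and -0.07, and 0 of 6 samples correlated best with its own number). With 3 samples per group, this cannot exclude that same-numbered samples were handled together. The fit with a replicate block gave 0 calls, as without it, at a smallest adjusted p of 0.591 against 0.213 in limma. Each block held 1 array of each group, so the median difference of -0.82 could not change. Each member has 1 probe set, so averaging probe sets changed nothing. Signal over background was not analysed here.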

Other observations

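Plekhb1, a myelin-associated gene of the list of other myelin proteins, had a spread like that of Mbp and Mobp. It was at 9.92, 9.68 and 9.98 in wild type and at 8.06, 9.33 and 9.09 in transgenic lesions, with an SD of 0.68 over the transgenic arrays and a difference of -1.04 (SE 0.32, unadjusted p 0.0139, adjusted p 0.488 in limma). Gltp, a glycolipid transfer protein, had the same order of transgenic arrays, at 7.62, 8.67 and 8.28, against 9.39, 8.75 and 8.81 in wild type. In Tmem88b, read from the brighter of 2 probe sets, the transgenic arrays were close together instead, at 7.63, 7.58 and 7.72 against 9.0, 8.43 and 8.77. These genes were picked after their values were seen.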
